A study of Mus musculus with 30 samples.

Results

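The comparison covers *Dis3* null against wild-type mouse embryos at embryonic day 2.5 (E2.5), the stage of compacting 8-cell embryos and early morulae. Its members were the single-embryo libraries labelled E2.5 with the genotype Null or WT, 4 null and 6 wild-type embryos, or 10 of the 23 embryos and of the 30 samples in the series. All embryos came from matings of *Dis3* het parents. The null allele was made by CRISPR-Cas9 deletion of exons 3 to 5, and the study made 2 knockout lines, but the line of each embryo is not given in the sources used here. The mating means that wild-type, het and null embryos alike developed from eggs of het mothers, so that maternal *Dis3* RNA and protein may have been present in all of them. Embryos were cultured in KSOM, lysed singly and captured on oligo-dT beads, and the genomic DNA of the same embryo served for genotyping. The 2 het embryos of the stage entered the statistical fit but not the contrast, and 6 null and wild-type embryos of E2.75 (3 each) were used to see how the E2.5 calls fared 1 stage later.

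DIS3 is a ribonuclease of the RNA exosome, the complex that degrades RNA from its 3′ end. In the nucleus the exosome removes short-lived transcripts such as the antisense RNAs made upstream of active promoters, and it trims or destroys faulty copies of stable small RNAs, among them spliceosomal snRNAs, snoRNAs and Y RNAs. In the cytoplasm it takes part in the turnover of mRNA. The embryo at this stage is forming its outer cells, which become trophectoderm, and its inner cells, which become the inner cell mass, with *Cdx2* and *Nanog* among the factors of these lineages. The study asked which transcripts build up without DIS3, and *Pou6f1*, a POU homeodomain factor, was among the genes it followed.

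The total count on genes was 3630727 to 9993650 in null embryos and 5525515 to 14015980 in wild-type embryos, with a mean 0.619-fold that of wild-type embryos (two-sided exact permutation test, p = 0.081). The libraries had no molecular identifiers, each embryo was 1 replicate, and all p-values measure the spread between embryos. In libraries of whole embryos, fewer cells of a type and less RNA per cell cannot be told apart. The embryo markers of the 8-cell to morula stage were all detected and tested (11 of 11). Of the markers of other cells that could cling to an embryo, 1 of 14 for cumulus or granulosa cells, 2 of 6 for oviduct epithelium and 3 of 8 for blood passed the filter on low counts, and none of the 6 had even an unadjusted p under 0.05 by edgeR. The summed level of the cumulus markers was 0 to 22 CPM in wild-type and 0.458 to 24.1 CPM in null embryos. *Xist* exceeded the Y-linked *Ddx3y* in 3 of 4 null, 3 of 6 wild-type and 0 of 2 het embryos, so the sexes were not balanced over the genotypes.

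*Dis3* (ENSMUSG00000033166, chr14:99075206-99099770 of GRCm38, minus strand) was measured first, since it checks the labels. Levels are in CPM, that is counts scaled by the library size of each embryo after its adjustment by TMM normalization. The levels of an embryo therefore do not add up to a fixed total. *Dis3* lay at 14.4, 2.29, 0 and 12.4 CPM in null replicates 1 to 4, at 55.6 and 53.9 CPM in the het embryos, and at 133, 120, 98.6, 58.9, 35.7 and 16.7 CPM in wild-type replicates 1 to 6. Every null embryo lay below every wild-type embryo, but wild-type replicate 6 lay close to the null embryos and below both het embryos. The log2 fold change, null over wild-type, was -3.38 ± 0.87 (SE), with an adjusted p of 0.0929 by edgeR's quasi-likelihood test over all genes. A two-sided exact permutation test over the 210 ways to assign 10 embryos gave p = 0.00476, the smallest this design allows (0.019 adjusted over the 4 genes tested so). The call passed in only 1 of the 10 fits that left out an embryo, that without wild-type replicate 6, with adjusted p from 0.0814 to 0.199 by edgeR. The counts cover all exons, also those outside the deletion, and *Dis3* overlaps *Pibf1* on the other strand. *Pibf1* was not called (log2 fold change 0.18).

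The calls demanded an adjusted p below 0.1 together with a log2 fold change larger than 1 in size. Of 15904 genes tested (of 55487 in the files), 216 were higher in null embryos (1.36%) and 73 were lower (0.459%), or 1.82% in all. The genes that rose changed by a median log2 fold change of 6.09 and those that fell by a median of -2.51, against -0.05 for all genes tested. The null embryos lay wholly above the wild-type embryos for 187 of the 216 and wholly below for 56 of the 73. Among all genes tested these shares were 3.26% and 1.43%. For 44 of the genes that rose, the 6 wild-type libraries together held no read, and for 6 of those that fell the 4 null libraries held none. The number of calls depended strongly on single embryos: without null replicate 4 it fell to 35 higher and 17 lower, and without wild-type replicate 6 it was 138 and 54. All 216 and all 73 kept their direction in each of the 22 alternative fits in which they were tested. The genes were chosen on these same embryos, so the kept direction restates the choice and is no added support. With scaling to the ERCC spike-ins, which moved the median of all genes to -0.46, the calls were 52 higher and 39 lower (57.1% higher, against 74.7% in the fit reported here), and with DESeq2 781 and 479 (62.0% higher).

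Null embryos had reads on 207 to 215 of the 216 genes and wild-type embryos on 103 to 122. Their summed level was 6299, 8017, 6022 and 10543 CPM in null replicates 1 to 4 and 1264 to 1453 CPM in wild-type embryos. The het embryos, which entered the fit but not the contrast, lay at 1533 and 1455 CPM. Both het embryos were no higher than the highest wild-type embryo for 138 of the 216 genes (63.9%), and both reached the lowest null embryo for 21. The 73 genes that fell summed to 1531 to 1663 CPM in null and 4604 to 5782 CPM in wild-type embryos, both het embryos were no lower than the lowest wild-type embryo for 53 of them (72.6%), and both fell to the highest null embryo for 0. The sums restate the calls, and the position of the het embryos was not tested. The same shares over all genes were not worked out. Thus 63.9% and 72.6% do not tell whether the het embryos were like the wild-type embryos.

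Most genes that rose did not code for protein. By the GENCODE annotation, 148 of the 216 (68.5%) were not protein-coding, against 9 of the 73 that fell (12.3%) and 3549 of all genes tested (22.3%). Many of these passed the filter on low counts only through the null embryos, where they were high. The classes are therefore given for the 13351 genes that had at least 10 counts in at least 2 wild-type embryos, of which 79 rose (0.592%) with a median log2 fold change of -0.14 over all of them. Of the 2276 non-coding genes among them 44 rose (1.93%), and of the 11067 protein-coding genes 35 (0.316%). The largest share was found for bidirectional promoter lncRNAs, which start next to a protein-coding gene and run the other way. Of 34 such genes 5 rose (14.7%), 26 had a positive fold change and the median was 1.71. Antisense genes rose in 10 of 319 cases (3.13%, median 0.32), processed transcripts in 6 of 144 (4.17%) and lincRNAs in 11 of 391 (2.81%). These shares are descriptions, without a test of a class.

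**Figure D1:**
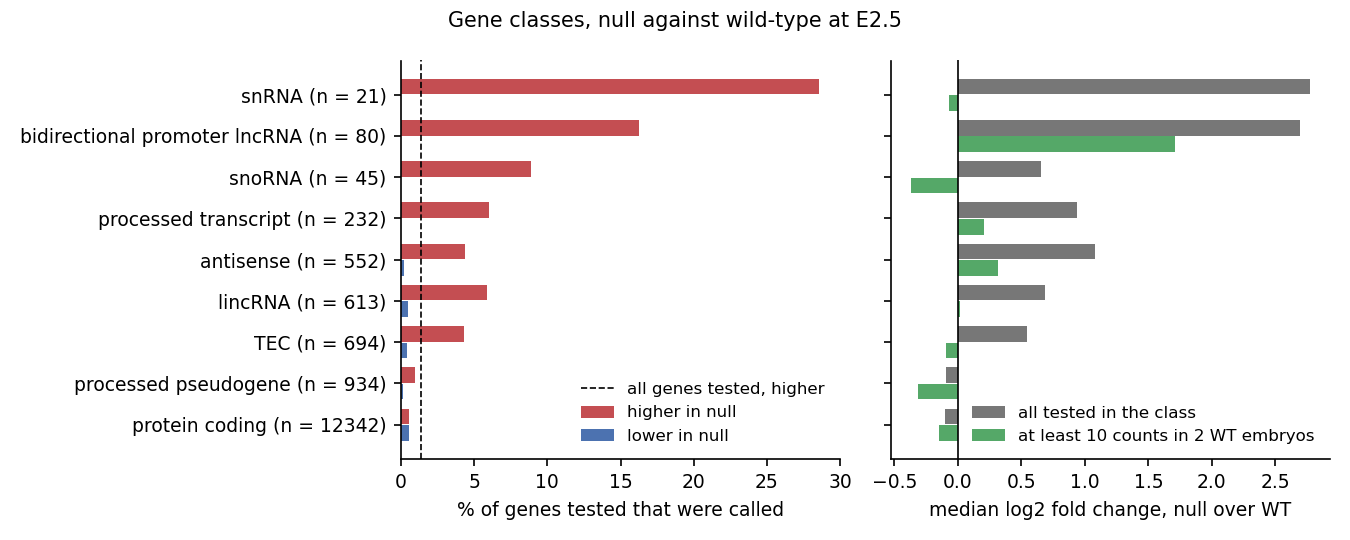
Gene classes of the annotation in the comparison of null with wild-type embryos at E2.5. The left panel gives the percent of all genes tested, those with reads in null embryos alone included, that were called higher (red) or lower (blue) in null embryos, with the share over all genes (1.36%) as a dashed line. The right panel gives the median log2 fold change over all genes tested (grey) and over those with at least 10 counts in 2 or more wild-type embryos (green). Bidirectional promoter lncRNAs stay at 1.71 in the second set, while the medians of snRNAs and snoRNAs lie below 0 there.

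The shares that several of these classes held of whole libraries moved in the same way, without any filter on genes. Bidirectional promoter lncRNAs held 0.111%, 0.141%, 0.101% and 0.174% of the counts of null replicates 1 to 4 and 0.0355% to 0.0653% in wild-type embryos, a 2.98-fold difference of the means. Antisense genes held 0.390% to 0.565% of the counts in null and 0.196% to 0.279% in wild-type embryos (2.02-fold), and TEC models, which rest on clusters of expressed sequence tags, 1.85-fold more. Small RNA genes held little of any library, and a large part of the snRNA share in null embryos lay on *Gm25360*, described below. In null embryos snRNA genes were 7.87-fold, misc_RNA genes 3.78-fold and snoRNA genes 2.38-fold higher. For these 6 classes the genotypes did not overlap, and the exact permutation test gave p = 0.00476, the smallest possible (0.0116 adjusted over the 17 library measures). The lincRNA share was 1.48-fold higher with overlapping groups (exact permutation test, p = 0.0238, adjusted 0.045). The share on processed transcripts also overlapped and did not pass (mean 0.412% in null and 0.369% in wild-type embryos, exact permutation test, p = 0.424). The shares on protein-coding genes (93.9% ± 0.491 in null and 93.8% ± 1.2 in wild-type, SD, n = 4 and 6) differed by less than the spread between embryos (p = 0.910, exact permutation test).

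Other measures moved with these classes. Reads outside annotated exons made up 33.3%, 37.7%, 32.3% and 39.5% of null libraries and 21% to 25.1% of wild-type libraries, again without overlap (35.7% ± 3.46 against 23.7% ± 1.55, SD, n = 4 and 6; exact permutation test, p = 0.00476, adjusted 0.0116). Ambiguous reads, which overlap more than 1 gene and are counted for none, were fewer in null embryos, again without overlap (2.07% ± 0.0997 against 2.42% ± 0.156, SD, n = 4 and 6; exact permutation test, p = 0.00952, adjusted 0.0202). The part of either kind of read in the gene calls was not tested. Gene counts per ERCC count were 14.4 ± 0.871 in null and 20.4 ± 5.36 in wild-type embryos (SD; exact permutation test, p = 0.0571, adjusted 0.0957). The share on mitochondrial genes (7.15% against 7.98%; exact permutation test, p = 0.605) and the number of genes detected after thinning to 3630727 counts (15394 against 15122; p = 0.381) did not pass.

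Many of the non-coding genes that rose shared a position that the calls had not used. Of the 148, 74 (50.0%) had a transcription start site within 1 kb of the start of a protein-coding gene on the other strand, against 712 of the 3549 non-coding genes tested (20.1%). In the set with reads in wild-type embryos the counts were 24 of 44 (54.5%) against 375 of 2276 (16.5%). The starts lay a median of 161 bp apart, from 2 to 989 bp. All 74 protein-coding neighbours were tested and 0 were called by edgeR, higher or lower, with 7 at an unadjusted p under 0.05. Among all 12342 protein-coding genes tested 0.551% were called higher and 0.519% lower, with 1552 at an unadjusted p under 0.05. At such shares 0 calls among 74 genes is no result about the neighbours. Of these neighbours 40 had a positive fold change, and their median was 0.06, where that of the 74 non-coding genes was 6.30. The reads were counted without regard to strand, and 39 of the 74 overlap exons on the opposite strand, so that reads in shared stretches count for neither gene.

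The pair *E130317F20Rik* and *Ptbp1* had the smallest p among the bidirectional promoter lncRNAs. *Ptbp1* encodes a regulator of splicing. *E130317F20Rik* lay at 83, 65.1, 39.3 and 115 CPM in null replicates 1 to 4 and at 7.12, 12.6, 9.74, 6.49, 6.93 and 2.7 CPM in wild-type replicates 1 to 6. The lowest null embryo was thus above the highest wild-type embryo (log2 fold change 3.32 ± 0.46, adjusted p = 0.00512 by edgeR). *Ptbp1* itself spanned 136 to 265 CPM in null and 99.9 to 230 CPM in wild-type embryos, with a log2 fold change of 0.25 ± 0.32. The starts are 67 bp apart on chromosome 10.

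*Gm49492* (ENSMUSG00000116180, chr15:100600204-100602766, plus strand) starts 220 bp from *Pou6f1*, on the other strand and with no shared exon. It had 8.82, 2.14, 4.61 and 8.36 CPM in null replicates 1 to 4, from 166 reads, and no read in any of the 6 wild-type embryos. The het embryos lay at 0 and 0.0844 CPM. With up to 3 counts allowed over the wild-type group, its level in null embryos exceeded that in wild-type embryos at least 125-fold (adjusted p = 0.0461, edgeR). It was picked out after its values were seen, for its place beside *Pou6f1*. The 2 shared promoters are shown as they stand on the plus strand of GRCm38, since each holds both starts; capitals run from the one start to the other, and 20 bases in lower case flank them.
E130317F20Rik-Ptbp1, chr10:79854951-79855058: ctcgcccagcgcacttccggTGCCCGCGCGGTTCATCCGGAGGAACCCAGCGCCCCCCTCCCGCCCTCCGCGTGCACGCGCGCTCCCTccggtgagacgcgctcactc
Gm49492-Pou6f1, chr15:100599964-100600224: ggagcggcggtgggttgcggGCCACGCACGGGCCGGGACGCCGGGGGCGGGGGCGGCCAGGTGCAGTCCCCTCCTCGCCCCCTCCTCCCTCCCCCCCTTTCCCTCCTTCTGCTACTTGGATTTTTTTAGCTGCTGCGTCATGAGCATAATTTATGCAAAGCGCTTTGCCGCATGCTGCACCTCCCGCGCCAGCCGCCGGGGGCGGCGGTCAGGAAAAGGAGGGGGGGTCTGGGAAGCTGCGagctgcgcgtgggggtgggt
The first has a GC content of 75.9% with 17 CpG in 108 bp, the second 69.3% with 23 CpG in 261 bp.

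Other pairs showed the same arrangement with lncRNAs of very different level. *Gm16196*, 60 bp from *Srsf3* (a splicing factor of the SR family), had 18.5, 11, 17.4 and 23.1 CPM in null embryos and at most 0.916 CPM in wild-type embryos, and rose by 5.76 ± 1.05 on the log2 scale (adjusted p = 0.0219, edgeR). The neighbour *Srsf3* had a log2 fold change of 0.27. *1700007L15Rik* beside *Zfp148* was already present in wild-type embryos at 17 to 40.4 CPM and reached 83.8 to 267 CPM in null embryos (2.48 ± 0.39). *AC133451.1*, 211 bp from the splicing factor gene *Smndc1*, had no wild-type read and lay at least 248-fold higher in the null group, with values from 1.08 to 29.2 CPM. *Gm47257*, 69 bp from the helicase gene *Ddx21*, rose by 6.60. *Gm45091*, which overlaps *Cebpa* on the other strand, was at least 121-fold higher.

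**Figure D2:**
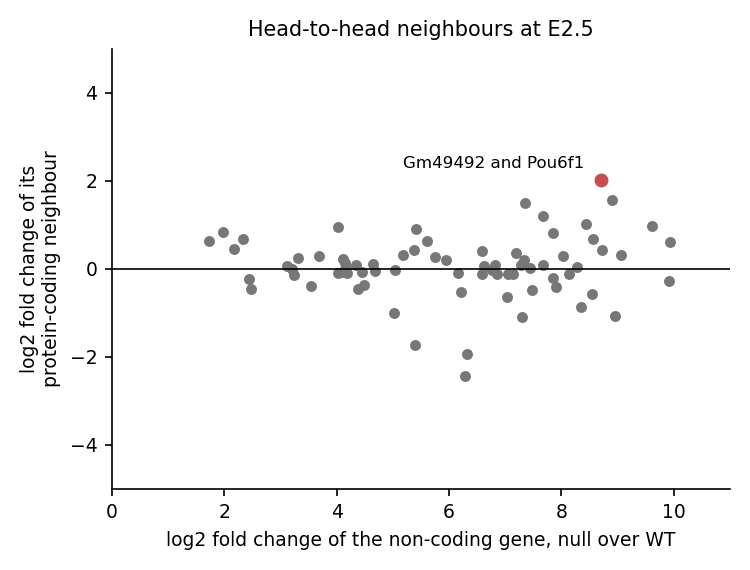
Log2 fold change, null over wild-type at E2.5, of 74 non-coding genes called higher (x axis) and of the protein-coding gene whose start lies within 1 kb on the other strand (y axis), 1 point a pair. The non-coding genes were chosen for being called, so their place right of 0 is no result. The neighbours scatter around 0 with a median of 0.06, and the pair of *Gm49492* (8.71) and *Pou6f1* (2.01) is marked in red.

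Some small RNA genes rose as well. Called were 6 of 21 snRNA genes tested (28.6%, against 1.36% of all genes), 4 of 45 snoRNA genes (8.89%), 3 of 12 misc_RNA genes and 1 of 6 scaRNA genes, all of them higher in null embryos. With at least 10 counts in 2 wild-type embryos, 1 of 7 snRNA genes (median -0.07), 1 of 24 snoRNA genes (median -0.37), 0 of 4 misc_RNA genes and 0 of 3 scaRNA genes rose by edgeR, so most of the genes called had few or no reads in wild-type embryos. These RNAs act without a poly(A) tail, whereas the libraries were primed by oligo-dT. The longest run of A within the called genes was 2 to 5 bases. The sequences of 4 of them are given in full, as DNA letters of the annotated transcript, since they show which RNA each gene encodes and how closely *Gm25360* copies another gene. Capitals mark an A, 4 to 6 T and a G, the kind of stretch to which Sm proteins bind, in the snRNAs, and the boxes C (TGATGA) and D (CTGA) in *Snord118*.
Gm25360, chr1:72226240-72226430, plus strand: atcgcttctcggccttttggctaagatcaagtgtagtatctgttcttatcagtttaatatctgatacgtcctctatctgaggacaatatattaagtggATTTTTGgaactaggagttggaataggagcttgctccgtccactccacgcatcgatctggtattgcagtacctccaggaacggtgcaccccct
Rnu12, chr15:83149644-83149794, plus strand: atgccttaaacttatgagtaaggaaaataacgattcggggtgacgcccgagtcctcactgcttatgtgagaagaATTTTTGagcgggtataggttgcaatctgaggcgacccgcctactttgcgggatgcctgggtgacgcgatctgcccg
Snord118, chr11:69073427-69073561, plus strand: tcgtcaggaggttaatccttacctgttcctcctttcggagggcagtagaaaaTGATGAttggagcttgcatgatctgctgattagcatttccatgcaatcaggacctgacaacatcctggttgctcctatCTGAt
Rny1, chr6:47788069-47788180, minus strand: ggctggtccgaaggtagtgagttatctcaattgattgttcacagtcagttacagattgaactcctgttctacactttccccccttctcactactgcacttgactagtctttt
The A, T and G stretch, searched on the transcript strand, is present in 124 of the 1383 annotated snRNA genes (8.97%), and TGATGA in 393 of 1507 snoRNA genes (26.1%). CTGA is short and common, in 1198 of the snoRNA genes (79.5%) and 455 of the snRNA genes (32.9%).

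*Gm25360* is 97.9% identical to *Rnu2-10*, a gene of the U2 snRNA, which recognizes the branch point of introns. It had 36.4, 116, 38.2 and 157 CPM in null replicates 1 to 4 and 0, 0.523, 3.94, 0.412, 0 and 1.08 CPM in wild-type replicates 1 to 6. The groups lay far apart (log2 fold change 6.57 ± 1.04, adjusted p = 0.0133, edgeR). The 21 snRNA genes tested summed to 80.0 to 292 CPM in null embryos, so *Gm25360* held a large part of that class. *Gm26316*, 99.5% identical to *Rnu2-10* and 97.4% to *Gm25360*, rose as well (12.4 to 24.5 CPM against at most 0.721 CPM; log2 fold change 5.85 ± 0.98). *Gm25099* and *Gm23287*, both 94.0% identical to the U5 snRNA gene *Rnu5g*, had no wild-type read and were at least 63.2-fold and 42.1-fold higher. Between such near copies the authors' alignment could place a read at either gene, so the gene of origin is uncertain.

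*Rnu12* encodes the U12 snRNA of the minor spliceosome, which removes a rare class of introns. It had 1.88, 15.4, 4.88 and 24.5 CPM in null embryos, and 2 reads in all over the wild-type embryos against 259 in null embryos, a ratio of 292 (95% counting interval 80.1 to 2427; adjusted p = 0.0213, edgeR). *Snord118* encodes the U8 snoRNA, which is needed for the processing of ribosomal RNA. It had 17.4, 52.6, 31.7 and 23.5 CPM in null and at most 0.890 CPM in wild-type embryos (log2 fold change 6.30 ± 1.01, adjusted p = 0.0133, edgeR). *Rny1*, a Y RNA, had 6.38, 15.9, 5.15 and 30.8 CPM against at most 0.371 CPM (5.80 ± 1.12, adjusted p = 0.0326, edgeR). *Scarna2*, a guide RNA of Cajal bodies, rose from at most 0.630 CPM to 4.97 to 8.36 CPM, and *Terc*, the RNA template of telomerase, from 1 wild-type read to 56 reads in null embryos (ratio 126, counting interval 21.8 to 5082). For each of the 4 genes whose sequences are given, all null embryos lay above all wild-type embryos, and null replicates 2 and 4 were the highest for *Gm25360*, *Rnu12* and *Rny1*.

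**Figure D3:**
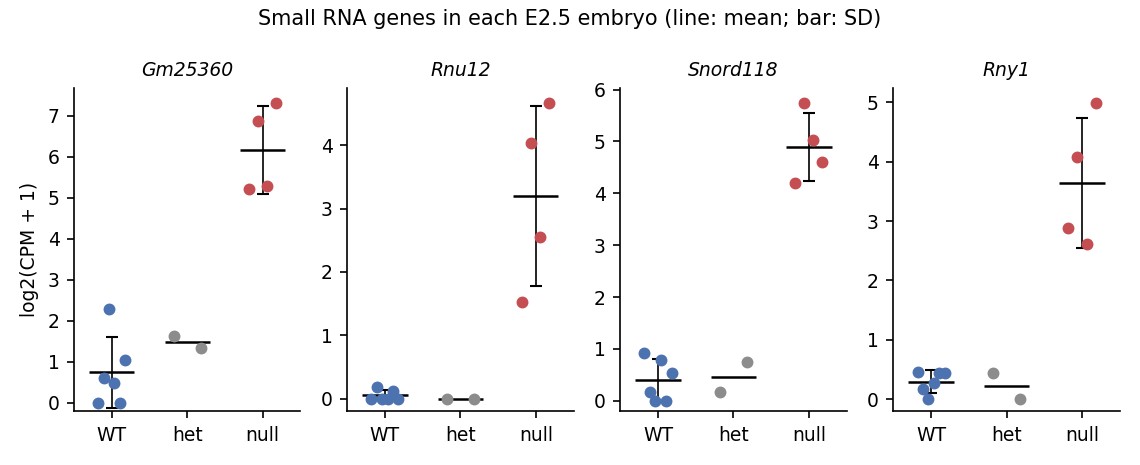
Level of 4 small RNA genes in each E2.5 embryo as log2(CPM + 1), with wild-type (blue), het (grey) and null (red) embryos as points, the mean as a line and the SD as a bar (not drawn for the 2 het embryos). Null embryos lie above every wild-type embryo in each panel, with *Gm25360* reaching 157 CPM in null replicate 4.

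Replication-dependent histone genes, whose mRNAs normally end in a stem-loop and not in a poly(A) tail, had 1 called member of 35 tested (2.86%, against 1.36% of all genes), out of 67 listed. Of the 19 with at least 10 counts in 2 wild-type embryos 17 had a positive fold change, with a median of 1.35 where all genes of that kind had -0.14. The called gene was *Hist1h4i*. It lay at 17.9, 153, 237 and 433 CPM in null and at 6.38, 3.27, 26.2, 40.8, 60.1 and 9.09 CPM in wild-type embryos, so null replicate 1 fell within the wild-type range (log2 fold change 3.11 ± 0.78, adjusted p = 0.0847, edgeR). The summed level of the histone list was 110 to 619 CPM in null and 30.6 to 114 CPM in wild-type embryos, so the highest wild-type embryo was above the lowest null embryo. Its median stayed positive with ERCC scaling (1.35 over the 35 genes). Among 21 snoRNA host genes, spliced RNAs that carry snoRNAs in their introns, 3 rose (14.3%, against 1.36% of all genes) and the median was -0.43. *Snhg3* had 63.0 to 108 CPM in null and 17.8 to 37.8 CPM in wild-type embryos (1.62 ± 0.34, adjusted p = 0.0489), *Snhg20* 51.7 to 87.1 against 7.38 to 28.1 CPM (1.81 ± 0.47, 0.0962) and *Snhg14*, which overlaps *Ube3a* on the other strand, 140 to 186 against 45.4 to 96.7 CPM (1.23 ± 0.27, 0.0547), all by edgeR.

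Further long non-coding RNAs and models of the TEC class rose, some of them also beside a protein-coding gene. The model *Gm42826* had the smallest adjusted p of its class (0.00138, edgeR), at 113, 96.6, 61.3 and 92.6 CPM in null and 10.5 to 15.6 CPM in wild-type embryos, and rose by 2.86 ± 0.32. *B930036N10Rik* rose by 5.19 ± 0.57, from 0.720 to 4.12 CPM up to 47.2 to 165 CPM. It starts 633 bp from *Alyref2* and overlaps it, and *Alyref2* was not called (0.31 ± 1.26). *4833445I07Rik*, which starts 99 bp from *Ndufaf3*, had 38.5 to 108 CPM in null and at most 0.912 CPM in wild-type embryos (7.85 ± 1.03, adjusted p = 0.00468, edgeR). *AC163629.2*, a lincRNA that shares exonic sequence with 2 genes on the other strand, had 1 wild-type read and 594 reads in null embryos, a ratio of 1341 (counting interval 240 to 53064). *Gm48296* and *Gm37817*, both TEC models, had no wild-type read and were at least 218-fold and 163-fold higher. *Neat1*, the RNA scaffold of paraspeckles, was named after its values were seen. It lay at 167, 157, 104 and 147 CPM in null and at 31.7, 7.98, 3.75, 8.96, 2.92 and 14.9 CPM in wild-type embryos, and rose by 3.61 ± 0.59 (adjusted p = 0.0133, edgeR).

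Of the 68 protein-coding genes that rose, several were silent or nearly so in wild-type embryos. *Clec11a*, which encodes a secreted lectin that acts as a growth factor of blood and bone cells, had 23.5, 9.17, 5.70 and 57.9 CPM in null embryos and no wild-type read, at least a 464-fold difference (adjusted p = 0.017, edgeR), the largest log2 fold change of those named by the rule. *Ceacam19*, of the CEA family of adhesion molecules, had 17.5, 43.2, 2.17 and 56.7 CPM in null embryos and 2 wild-type reads, a ratio of 854 (counting interval 236 to 7061). *Mageb3*, of the MAGE family, had 16 to 61.8 CPM against at most 0.654 CPM (7.02 ± 0.97, adjusted p = 0.00512, edgeR); it overlaps *Ctdspl2* on the other strand. *Spata31d1d* reached its call mainly through null replicate 4, with 24.9 CPM against 0.153 to 2.16 CPM in the other null embryos. *Ell*, a transcription elongation factor named after its values were seen, was present in wild-type embryos at 3.01 to 20.8 CPM and in null embryos at 77.3, 108, 90.6 and 184 CPM (3.47 ± 0.54, adjusted p = 0.0131, edgeR). Of the protein-coding genes with at least 10 counts in 2 wild-type embryos, 5 of 220 of 1 exon rose (2.27%) and 30 of 10847 of several exons (0.277%), a difference that was not tested.

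The 73 genes that fell were mostly protein-coding (64) and had no common class. *Plin2*, which coats lipid droplets, lay at 1.22, 0.764, 0.271 and 0.204 CPM in null replicates 1 to 4 and at 23.7, 19.6, 2.06, 39.9, 11.1 and 15.7 CPM in wild-type replicates 1 to 6. No null embryo reached the lowest wild-type embryo (log2 fold change -4.80 ± 0.88, adjusted p = 0.0242, edgeR). *Cbr2*, a carbonyl reductase, fell from 11.5 to 38.7 CPM to 0.542 to 2.53 CPM (-3.92 ± 0.69, adjusted p = 0.0205). *Slc43a3*, a transporter of purine bases, held closely together in null embryos at 77.7, 75.2, 63.7 and 66.9 CPM, against 192 to 486 CPM in wild-type embryos (-2.04 ± 0.31, adjusted p = 0.0115). *Lactb2*, a mitochondrial ribonuclease, and *Zfp985*, a zinc finger gene, fell by 1.68 and 2.04 on the log2 scale, and with *Plin2*, *Cbr2* and *Slc43a3* they were the 5 genes called lower in all 22 alternative fits; both were named for that. *Tet2*, the oxidase of methylated cytosine, also named after its values were seen, had 31.5 to 52.3 CPM against 57.0 to 309 CPM (-1.76 ± 0.42, adjusted p = 0.0753).

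Among the genes with the largest falls were several whose null embryos held only a few reads. *Tmem139* had 3 null reads and 653 wild-type reads, a wild-type over null ratio of 96.4 (counting interval 32.8 to 469). *Snap47*, a SNARE protein of membrane fusion, had 0 to 0.281 CPM in null and 3.01 to 15.9 CPM in wild-type embryos (-6.11 ± 1.15, adjusted p = 0.0288, edgeR). *Slc39a14*, a metal ion transporter, had at most 0.281 CPM in null embryos but also only 0.450 CPM in wild-type replicate 6, against 3.71 to 18.2 CPM in the other wild-type embryos. *B020004J07Rik*, the one called member of the 16 genes of the 2-cell stage that were tested (list median 0.27), had 1 null read against 634 wild-type reads (ratio 281, counting interval 50.2 to 11108), and its wild-type level was 45.2 CPM in replicate 6 and 0.916 to 5.25 CPM in the others. *Lncenc1*, a lincRNA, fell from 21.7 to 53 CPM to 0 to 9.59 CPM (-3.72 ± 0.94, adjusted p = 0.0858). *Naa11* and *Gtdc1* fell by 3.83 and 4.73, and the TEC models *Gm37248* and *Gm43628* by 5.86 and 5.52.

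Gene groups of metabolism, growth and stress held few calls. Each group is given by its calls and the median log2 fold change of the members tested, to be read against 1.36% higher, 0.459% lower and a median of -0.05 over all genes. Counts at an unadjusted p under 0.05, here and in the gene lists below, are to be read against 2381 of all 15904 genes tested. Of 28 genes of the RNA exosome and its cofactors only *Dis3* was called, and the median was 0.07. The paralog *Dis3l* had 50.0, 28.6, 20.3 and 13.1 CPM in null embryos and 0.515 to 4.29 CPM in 5 wild-type embryos, but 34.5 CPM in wild-type replicate 6, and it did not pass (1.91 ± 0.97, adjusted p = 0.377). The 85 cytosolic ribosomal proteins (median -0.12), the 77 mitochondrial ribosomal proteins (-0.25) and the 51 genes of ribosome biogenesis (0.01) had 0 calls each by edgeR; of these genes 3, 10 and 0 had an unadjusted p under 0.05. In oxidative phosphorylation, 1 of 81 nuclear genes fell, *Sdhb* of complex II (54.8 to 120 CPM against 118 to 226 CPM, -1.10 ± 0.29, adjusted p = 0.0998), and 13 had an unadjusted p under 0.05, with a median of -0.29. Of 31 genes of sterol and fatty acid synthesis only the desaturase gene *Scd2* fell (2.17 to 6.12 against 9.29 to 47.9 CPM, -2.51 ± 0.58, adjusted p = 0.0664). Of 19 genes of lipid handling only *Plin2* fell, with a median of -0.77, and *Lipe*, the hormone-sensitive lipase, had 15.1 to 39.6 CPM against 3.56 to 8.75 CPM without passing (2.01 ± 0.55, adjusted p = 0.108).

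The 25 p53 targets (median 0.05; *Cdkn1a* 0.84 ± 0.41), the 24 genes of the integrated and ER stress responses (-0.39), the 12 of RNA sensing (-0.36), the 31 cyclins and cell cycle kinases (-0.08), the 37 of DNA replication (-0.22) and the 19 subunits of the vacuolar ATPase (-0.23) had 0 calls each by edgeR, with 2, 3, 1, 3, 3 and 6 genes at an unadjusted p under 0.05. Of 35 maternal-effect and oocyte genes (median 0.26, but -0.0034 over the 29 with at least 10 counts in 2 wild-type embryos and 0.031 without wild-type replicate 5) only *Nlrp4c* fell, on 1 null read and 315 wild-type reads (ratio 140, counting interval 24.9 to 5527) with wild-type replicate 4 at 0. The 22 genes of the mitochondrial genome (-0.54) and the 9 POU factors (0.25, but -0.22 over the 7 with such counts in wild-type embryos) had 0 calls by edgeR, with 5 and 2 genes at an unadjusted p under 0.05. With ERCC scaling every list median fell, that of all genes being -0.46, and those of the exosome (-0.28), p53 (-0.25), maternal (-0.037), 2-cell (-0.11) and POU (-0.12) lists, of ribosome biogenesis (-0.39) and of the candidate targets described below (-0.018) turned negative. Medians near 0 also turned with single embryos. That of the p53 targets ran from -0.22 without null replicate 1 to 0.80 without wild-type replicate 1, and that of the POU factors was -0.059 without null replicate 2. The cytosolic ribosomal proteins stood at 0.044 without wild-type replicate 5, and the cyclins and kinases at 0.022 without wild-type replicate 6 and 0.0063 without wild-type replicate 1. The RNA sensing genes ran from -0.71 without null replicate 4 to -0.072 without null replicate 1, and stood at 0.30 with limma-voom.

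Lineage genes gave no call at this stage, where 1.82% of all genes tested were called. At that share 0 calls in lists of 15 to 27 genes is no result about these genes. Of 22 pluripotency factors 0 were called (median -0.20) and 4 had an unadjusted p under 0.05 by edgeR. *Klf4* had 34.7, 19.6, 5.70 and 18.6 CPM in null and 17.6 to 82.7 CPM in wild-type embryos, and the difference did not pass (-1.29 ± 0.51, adjusted p = 0.26). *Klf2* had 72.4 to 145 against 40.4 to 77.0 CPM (0.67 ± 0.29, adjusted p = 0.283). Of 15 trophectoderm genes 0 were called (median -0.66, 12 negative, 2 with an unadjusted p under 0.05). Of 17 genes of the primitive endoderm and FGF signalling 0 were called (median -0.51, 2 with an unadjusted p under 0.05); *Spry2*, a feedback inhibitor of FGF signalling, came closest (-0.97 ± 0.27, adjusted p = 0.114). Of 24 Hippo pathway genes 0 were called (median -0.30, 3 with an unadjusted p under 0.05), with the kinase gene *Stk3* at -1.78 ± 0.52 and *Mob1b* at -1.31 ± 0.38 (both adjusted p = 0.127 by edgeR). Of 27 genes of junctions, polarity and cavitation 0 were called (median -0.54, 21 negative, 4 with an unadjusted p under 0.05).

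*Nanog* and *Cdx2*, which the study examined, were not called here by edgeR. *Nanog* lay at 21.7, 19.1, 18.7 and 21.8 CPM in null embryos, a narrow band, and at 44.9, 25.4, 46.9, 79.0, 65.3 and 1.71 CPM in wild-type embryos. All 4 null embryos were below the wild-type median of 45.9 CPM but above wild-type replicate 6 (log2 fold change -1.11 ± 0.66, adjusted p = 0.471, edgeR; exact permutation test, p = 0.667). Without replicate 6 the log2 fold change was -1.36 (adjusted p = 0.149, edgeR). *Cdx2* lay at 12.6, 0, 0 and 0.204 CPM in null and at 3.78, 5.89, 31.1, 23.2, 38.9 and 1.62 CPM in wild-type embryos. Null replicate 1 fell among the wild-type embryos, and the difference was not called (-2.38 ± 1.31, adjusted p = 0.423, edgeR). The exact permutation test gave p = 0.0667, adjusted 0.0889. Without null replicate 1 the log2 fold change was -7.73 with an adjusted p of 0.0447 by edgeR.

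*Pou6f1* (chr15, minus strand) lay at 59.5, 19.4, 25.8 and 52.2 CPM in null replicates 1 to 4, at 7.62 and 14.9 CPM in the het embryos and at 7.27, 3.01, 25.9, 6.28, 4.56 and 11.5 CPM in wild-type replicates 1 to 6. The null embryos all exceeded the wild-type median of 6.78 CPM, but wild-type replicate 3 was above 2 of them. The fit gave a log2 fold change of 2.01 ± 0.61 with an adjusted p of 0.14, which missed the threshold, and the exact permutation test gave p = 0.019 (0.0381 adjusted over 4 genes). Without wild-type replicate 3 it passed (2.58, adjusted p = 0.0797, edgeR), as it did with DESeq2 on the same embryos (2.07, adjusted p = 0.015). Of the 10 candidate targets the study chose, partly on these embryos, so that their direction is no independent evidence, 9 were tested and 0 were called (median 0.33, 3 with an unadjusted p under 0.05 by edgeR). *Sox15*, a SOX factor, had 608 to 1209 CPM against 237 to 810 CPM (0.71 ± 0.29), and *Cox6b2*, a subunit of cytochrome c oxidase, 5.20 to 50.5 CPM against 1.24 to 22.8 CPM (2.03 ± 0.86), neither of which passed.

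**Figure D4:**
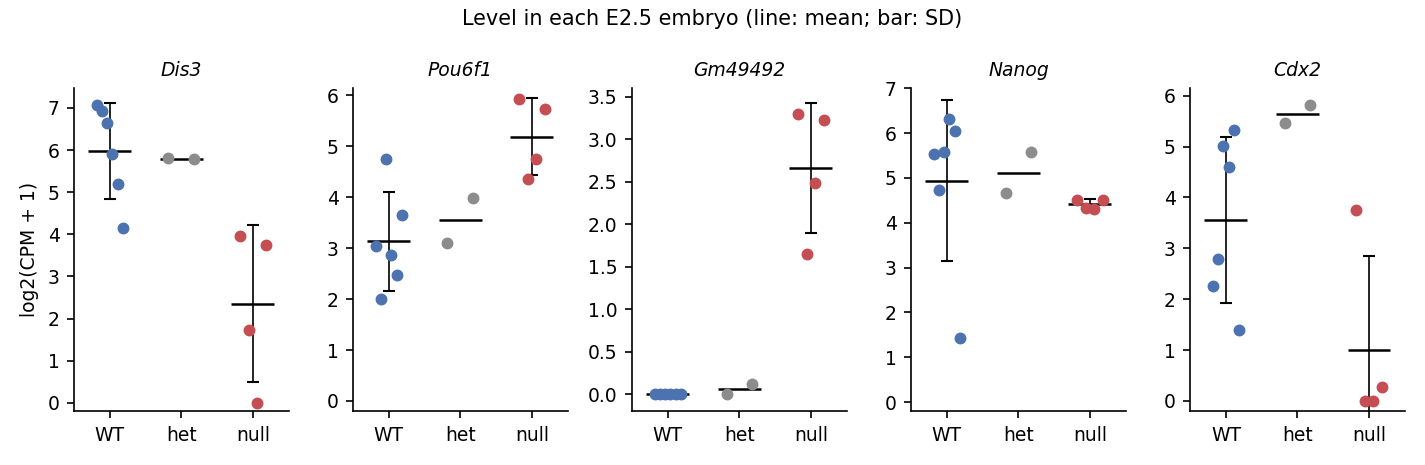
Level of *Dis3*, *Pou6f1*, its neighbour *Gm49492*, *Nanog* and *Cdx2* in each E2.5 embryo as log2(CPM + 1), with points for wild-type (blue), het (grey) and null (red) embryos, the mean as a line and the SD as a bar (not drawn for the 2 het embryos). *Gm49492* is at 0 CPM in all 6 wild-type embryos, while the groups overlap for *Pou6f1*, *Nanog* and *Cdx2*.

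The series also holds POU6F1 peaks from embryonic stem cells that expressed a Pou6f1-mCherry fusion, and these were set beside the E2.5 calls. A gene was counted when a region found in both replicates lay within 1 kb of one of its starts, against either of the controls. Such peaks stood at 127 of 216 genes that rose (58.8%; exact 95% interval 51.9% to 65.4%), 41 of 73 that fell (56.2%; 44.1% to 67.8%) and 9345 of 15904 tested (58.8%). The intervals treat genes as independent and leave out the spread between embryos. Within the classes the shares were not alike. Protein-coding genes that rose had a peak in 37 of 68 cases (54.4%) against 70.0% of all protein-coding genes, and non-coding genes that rose in 90 of 148 (60.8%) against 19.9% of all non-coding genes. The non-coding genes with a protein-coding neighbour within 1 kb held most of these, with 67 of 74 (90.5%) against 525 of 712 (73.7%), while those without had 23 of 74 (31.1%) against 181 of 2837 (6.38%). Of the 148 that rose only 44, and of all 3549 non-coding genes 2276, had at least 10 counts in 2 wild-type embryos. Many of the 148 thus passed the filter only through the null embryos, and the peak shares were not worked out without them. With a peak demanded against both controls, the shares were 15.7% of the genes that rose, 28.8% of those that fell and 21% of all. By that rule the non-coding genes with a neighbour had a peak in 19 of 74 cases (25.7%) against 191 of 712 (26.8%), without the excess seen against either control, and those without had one in 6 of 74 (8.11%) against 49 of 2837 (1.73%). Protein-coding genes that rose stood at 13.2% against 25.1%. *Pou6f1* itself had a peak against both controls, *Dis3* against 1, and *Nanog* and *Cdx2* had none within 1 kb by the rule used here. The paper, by its own rule on the same experiment, reports POU6F1 at the promoters and within the genes of *Nanog* and *Cdx2*. It also reports a larger occupied share among genes that fell than among those that rose, for null against het embryos of both stages. The cells differ from the embryo, and the lists give no depth.

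The calls were followed to E2.75 in a fit of the 11 embryos of that stage, which shares no embryo with E2.5. There 316 of 14442 genes were higher (2.19%) and 340 lower (2.35%) in null embryos, 4.54% in all. Of the 216 genes that rose at E2.5, 175 were tested there, 167 (95.4%) changed in the same direction and 81 (46.3%) were called higher, against 2.28% called higher among the 13543 genes tested at both stages. Of the 73 that fell, 55 (75.3%) kept their direction and 11 (15.1%) were called lower, against 2.50%. Of all genes tested at both stages 57.8% had the same direction. Only 79 of the 216 that rose, but all 73 that fell, had at least 10 counts in 2 wild-type embryos at E2.5. A gene almost silent in wild-type embryos can pass the E2.75 filter through null embryos alone, which favours a rise. The shares of 95.4% and 46.3% are therefore descriptions and not tests against the other shares, and they were not worked out for the 79 alone. Without wild-type replicate 6 at E2.5, the shares also called at E2.75 were 50.8% of those that rose, with the same limit, and 11.1% of those that fell. *Clec11a* (10.3 on the log2 scale), *Neat1* (3.22), *Ell* (2.66), *E130317F20Rik* (3.98), *Snhg3* (3.58) and *Gm25360* (4.80) were called higher at E2.75 too. *Plin2* (0.32), *Cbr2* (0.79) and *Zfp985* (0.33) were not called there, nor were *Gm49492* (2.61) and *Pou6f1* (0.09). The difference between the stages was tested for 18677 genes in 1 fit of all 23 embryos, and 0 genes were called by edgeR, with 2046 at an unadjusted p under 0.05. DESeq2 called 124 higher and 220 lower at E2.5.

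**Figure D5:**
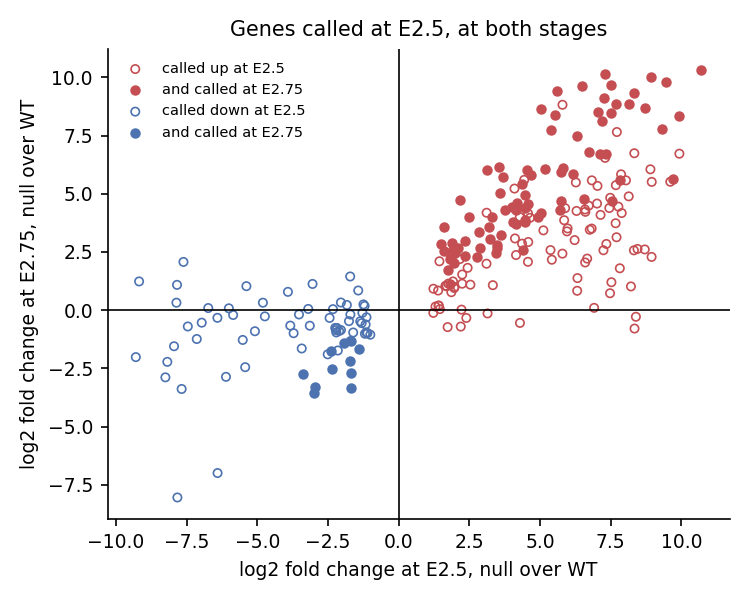
Log2 fold change, null over wild-type, at E2.5 (x axis) and E2.75 (y axis) for the genes called at E2.5 and tested at both stages, red for those called higher and blue for those called lower at E2.5. Filled points were called in the same direction at E2.75, which holds for 81 of 175 red and 11 of 73 blue points. Most red points lie above 0 on the y axis, and the blue points spread to both sides. Many red genes had few or no reads in wild-type embryos at E2.5, which favours a place above 0. The share of filled red points is likewise a description and not a test.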

How the data were processed

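RNA-seq counts of single embryos and POU6F1 ChIP-seq peak lists were used. The authors trimmed reads (Cutadapt 3.4), aligned them to GRCm38 (STAR 2.7.8a) and counted them per gene (HTSeq 0.11.4, mode intersection-strict, strand ignored), so the deposited counts are whole, unnormalized reads and leave out reads that reach beyond annotated exons. ERCC counts and the program's summary lines stayed out of library sizes and tests; reads outside exons were 21.0% to 39.5% and ambiguous reads 1.95% to 2.66% of a library of null or wild-type embryos. The deposited peak lists (Bowtie2 2.4.4, MACS2 2.2.7.1, bedtools 2.30.0) hold a score, a fold enrichment as a ratio and the -log10 of p and q values, as the authors' peak caller gave them; only the positions were used.

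All 12 E2.5 embryos (6 wild-type, 2 het, 4 null) entered 1 fit by edgeR 4.0.16 in R 4.3.3 (TMM, filterByExpr, quasi-likelihood test, Benjamini-Hochberg). The SE is the size of the log2 fold change over the square root of F, and a group without a read was set at 3 counts. Counting intervals cover counting error only. The 22 pairs of embryos of 1 genotype had a chi-square per gene of 43.2 to 205, so that each embryo was counted as a replicate. Single values were tested by exact permutation of embryos with SciPy 1.17.1 in Python 3.11.15. Alternatives used DESeq2 1.42.0 and limma 3.58.1. Classes, starts and sequences came from GENCODE vM21 and GRCm38, which hold 55227 of 55487 genes.

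The comparison, its members and the gene lists were chosen with earlier results of these data known. Genes were named by rule: *Dis3*, *Pou6f1*, *Nanog* and *Cdx2*; the 12 largest rises and falls among called genes with a mean of at least 5 CPM in the higher genotype and no overlap of the genotypes; called members and up to 4 members of smallest p of each list; and up to 3 called genes of smallest p of each class. Other genes are marked where they appear, and some genes that met the rule are not reported here.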

Additional observations from a re-analysis of the deposited data

Results flagged for a closer look

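In groups of 4 to 6 embryos, an embryo was picked out when its gap to the next exceeded Dixon's 95% critical value. Of 54 groups checked 7 were picked out, and chance alone gives about 5%. Null replicate 1 had the lowest lincRNA share of counts, 0.769%, against 1.00% to 1.04% in the other null embryos. The share on processed transcripts was highest in null replicate 4 (0.483%, others 0.383% to 0.392%) and in wild-type replicate 1 (0.529%, others 0.318% to 0.397%). Wild-type replicate 1 also had the highest share on bidirectional promoter lncRNAs among wild-type embryos (0.0653%, others 0.0355% to 0.0445%), still below every null embryo. *Pou6f1* stood at 25.9 CPM in wild-type replicate 3, against 3.01 to 11.5 CPM in the other wild-type embryos, and *Cdx2* at 12.6 CPM in null replicate 1, against 0 to 0.204 CPM in the other null embryos. *Gm25360*, the U2-like snRNA gene, stood at 3.94 CPM in wild-type replicate 3, against 0 to 1.08 CPM in the other wild-type embryos.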

How the results depend on the processing

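The number of calls changed with the method, while in every fit the called genes that were tested kept their direction. That direction was nearly fixed by the choice of the genes on these same embryos. The counts, higher then lower in null embryos, were 781 and 479 with DESeq2, 52 and 39 with ERCC scaling, 399 and 140 without a filter on low counts, 124 and 61 with a stricter one, 586 and 233 with all 23 embryos in the fit, 587 and 119 with limma-voom and sample weights, and 99 and 30 with embryo sex as a covariate (chosen after seeing the data). Counts stayed within 1.5 times of the reported ones with DESeq2's size factors, with null and wild-type embryos alone, after thinning and on autosomes alone (also chosen after seeing the data). Leaving out 1 embryo gave 35 to 159 higher and 17 to 58 lower, that is 159, 100, 91, 83, 96 and 138 higher without wild-type replicates 1 to 6 and 120, 77, 114 and 35 without null replicates 1 to 4; 34 of the 216 and 8 of the 73 passed in all 10 of these fits. Fewer embryos entered these fits, and beyond that the cause was not tested.

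The log2 fold change of *Dis3* lost its call with ERCC scaling (-3.76), with null and wild-type embryos only (-3.39) and with sex as a covariate (-3.25), and ran from -3.96 to -2.98 when 1 embryo was left out. *Pou6f1* passed with DESeq2 (2.07), all 23 embryos (2.03) and limma-voom (2.18), and ran from 1.74 to 2.58 with 1 embryo left out. *Nanog* ran from -1.36 to -0.86, passing in none of these. *Cdx2* passed with limma-voom (-5.25) and ran from -7.73 to -1.96 with 1 embryo left out, passing without null replicate 1. Called list members, 10 as reported, were 47 with DESeq2, 5 with ERCC scaling, 27 with all embryos, 25 with limma-voom, 6 with sex and 1 to 9 with 1 embryo left out. Genes that differed between the stages, 0 as reported, were 124 higher and 220 lower at E2.5 with DESeq2, 95 and 126 without a filter, and 0 to 2 and 0 to 3 with 1 embryo left out. Library measures with an adjusted p under 0.05 by the exact permutation test were 7 to 10 with 1 embryo left out. Peaks demanded against both controls stood at 15.7% of genes that rose and 28.8% of those that fell. The direction turned for *Tsr1* with ERCC scaling (-0.065) and for *Ddx58* without null replicate 2 (-0.15, up to 3.94 without wild-type replicate 6), neither of them called.

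Replicate numbers did not pair the embryos: same-numbered null and wild-type embryos correlated at 0.0111 to 0.0736 in their deviations, and 1 of 4 null embryos correlated best with its own number. With the replicate number as a block, 29 genes were higher and 12 lower, *Dis3* had -4.37 without a call, 3 list members were called, the stages differed for 1 gene in each direction, and 0 library measures passed, since 4 pairs cannot give a p under 0.125. Depth limits the genes with few reads: a genotype without a read was set at 3 counts, so that folds against it are lower bounds.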
